A study of Mus musculus with 2 samples.

Results

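The let-7 microRNAs are among the most widely shared small RNAs of animals. Each mouse let-7 gene encodes a hairpin RNA that is cut to a short mature strand, and that strand guides silencing complexes to messenger RNAs that pair with its seed, the bases 2 to 8. In vertebrate cells let-7 is low in embryonic and progenitor cells, where the RNA-binding protein LIN28 blocks hairpin processing, and high in differentiated tissue, where it lowers growth regulators such as HMGA2 and RAS proteins. Several let-7 sequences are encoded at more than 1 place in the genome, namely let-7a, let-7c and let-7f. Reads of those sequences do not tell which gene they came from. The 6 genes described here, Mirlet7b, Mirlet7d, Mirlet7e, Mirlet7g, Mirlet7i and Mir98, each encode a mature strand of their own, and were taken by symbol from 2202 miRNA genes counted.

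The tissue is labelled as layer of hippocampus, from male B6CASTF1/J mice (F1 hybrids of the C57BL/6 and CAST strains) supplied by The Jackson Laboratory and aged 18 to 20 months. The 2 libraries, called replicates 1 and 2 here, form a single group, and the labels give the RNA a size under 30 without a unit. No treatment, age or genotype was compared. The labels number the samples as biological replicates, each with a biosample entry of its own but with a shared donor entry, and do not say outright that they came from separate animals, so spread and p-values describe differences between these samples that may be technical.

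Replicate 1 had 10594081 reads, of which 3758318 were assigned in sense to a miRNA gene, and replicate 2 had 16131923 reads with 5598792 assigned. Reads that mapped to several places made up 51.5% and 46.7% of all reads in replicates 1 and 2, and they enter no gene. Of the listed marker genes for neurons, 5 of 8 reached 10 counts in both libraries. Those short of it were Mir124a-1 (2 and 5 counts in replicates 1 and 2), Mir124a-2 (0 and 2) and Mir124a-3 (0 and 0). Whether their reads were among those that mapped to several places was not tested, so absence from the tissue cannot be read from these counts. The neuron list summed to 46455 and 46899 counts per 1000000 counted reads (CPM) in replicates 1 and 2. The lists for the other cells of brain tissue summed to 22987 and 23043 CPM for astrocytes, 6090 and 9705 CPM for oligodendrocytes, 22045 and 16510 CPM for endothelial and mural cells, and 812 and 762 CPM for microglia and leukocytes. The lists of erythroid, epithelial, liver and muscle genes held at most 245 CPM each in either library, and the choroid plexus and ciliated cell list held 1980 and 2600 CPM. The lists differ in their number of genes, such as 2 for astrocytes and 8 for neurons. Their sums are therefore no measure of the shares of cell types.

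The mature strands that the 6 genes encode are shown first, because their differences bear on which gene a read is assigned to. In the sequences below, credited to RefSeq on GRCm38.p6, capitals mark the seed and reading is 5′ to 3′. These are the strands from the 5′ arm of each hairpin.
let-7b-5p: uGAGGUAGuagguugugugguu
let-7d-5p: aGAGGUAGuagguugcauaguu
let-7e-5p: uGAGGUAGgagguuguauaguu
let-7g-5p: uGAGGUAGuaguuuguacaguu
let-7i-5p: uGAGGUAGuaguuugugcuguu
miR-98-5p: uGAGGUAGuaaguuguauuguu
The duplicated strands of the family are printed for comparison.
let-7a-5p: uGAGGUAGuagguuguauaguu
let-7c-5p: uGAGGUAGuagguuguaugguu
let-7f-5p: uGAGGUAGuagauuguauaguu

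All 6 strands carried the seed GAGGUAG, whose reverse complement CUACCUC is the target site they share. Of 1738 mature entries in the RefSeq table, 13 entries of 13 genes had that seed. Mirlet7a-2 is not among these 13, although its hairpin holds all 22 bases of the let-7a strand. The 6 strands were 22 bases long, so no length scaling was applied when their levels were compared. They were identical at 14 of 22 positions, and the seed was the longest run without a difference. Counted from 1 at the 5′ end, let-7b differed from let-7a by A17G and A19G, let-7d by U1A and U16C, let-7e by U9G, and let-7g by G12U and U18C. From let-7a, let-7i was set apart by G12U, A17G, U18C and A19U, and miR-98 differed by G11A and A19U.

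The strand of let-7b lay 1 base from that of let-7c, and let-7e lay 1 base from let-7a. The strands of let-7d, let-7g, let-7i and miR-98 differed at 2 or more positions from each of the other 8 strands printed above. The pair most unlike each other was let-7d and let-7i, with 6 differing positions. No other annotated hairpin held any of the 6 strands whole. The longest stretch a 5′ strand shared with another hairpin was 17 bases for let-7g, 16 for let-7b, let-7e and let-7i, 14 for let-7d and 10 for miR-98. Whole hairpins of the 6 genes shared at most 19 bases with any other, against 22 to 26 bases for the other 6 let-7 genes. How many mismatches the alignment allowed is not given in the sources used here, so exchange of reads between strands that differ by 1 base was not tested.

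**Figure D1:**
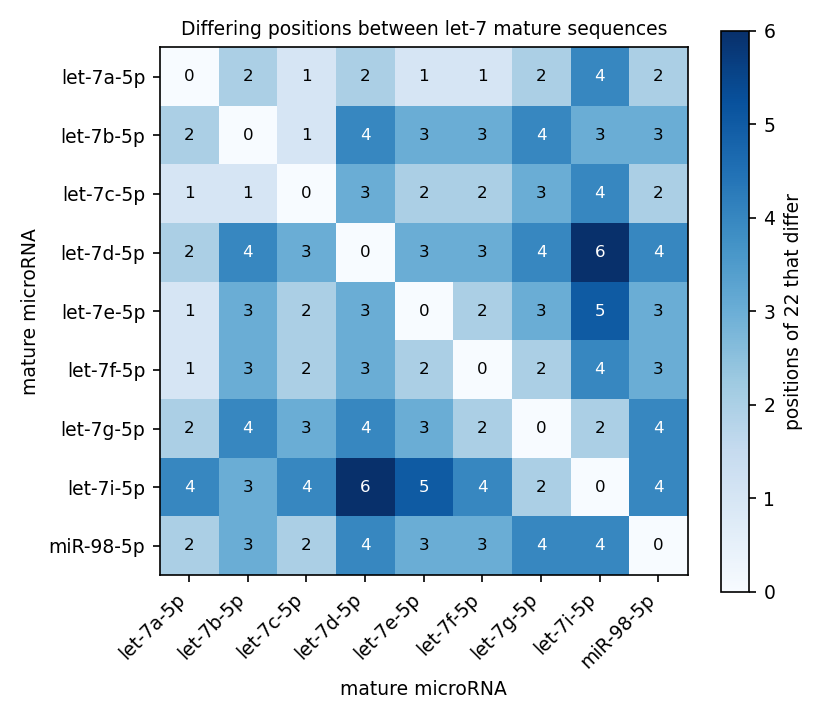
Number of differing positions, of 22, between each pair of let-7 mature strands on both axes, darker for more differences. The strands of let-7b and let-7e are 1 position from a duplicated strand, and let-7d and let-7i are 6 positions apart.

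The opposite arms were less alike, and their reads enter the same gene count. They are printed because a count of a let-7 gene sums both arms, and capitals again mark bases 2 to 8.
let-7b-3p: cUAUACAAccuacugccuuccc
let-7d-3p: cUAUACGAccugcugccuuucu
let-7e-3p: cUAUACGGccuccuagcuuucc
let-7g-3p: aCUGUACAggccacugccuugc
let-7i-3p: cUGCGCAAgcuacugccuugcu
miR-98-3p: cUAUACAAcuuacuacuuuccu
Only let-7b and miR-98 shared their 3′ arm seed, UAUACAA, among the 6. The 3′ strands shared between 9 bases (miR-98) and 15 bases (let-7e, with Mirlet7a-2) with any other hairpin.

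The stretch between the arms holds the terminal loop, where LIN28 contacts the GGAG motif in mammalian let-7 precursors. Capitals mark GGAG in the stretches of 5 of the genes, read 5′ to 3′ from the GRCm38.p6 hairpins.
Mirlet7b: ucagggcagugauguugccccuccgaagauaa
Mirlet7d: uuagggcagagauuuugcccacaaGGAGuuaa
Mirlet7e: gaggaagacacccgaGGAGauca
Mirlet7g: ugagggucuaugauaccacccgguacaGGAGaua
Mirlet7i: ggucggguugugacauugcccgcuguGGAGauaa
The motif, searched as the letters GGAG on the annotated strand, stood in 4 of these 5 stretches and not in that of Mirlet7b. These counts cover the 5 genes printed and not all 6. The 5 stretches ran from 23 bases in Mirlet7e to 34 in Mirlet7g and Mirlet7i. Of all 2202 annotated hairpins 37.2% held GGAG somewhere, and 5 of the other 6 let-7 hairpins did. Those values cover whole hairpins and not the stretch between the arms, so they are not a like measure to the 4 of 5. The motif match is a description of the letters and no measure of binding.

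The 6 genes lie on 6 chromosomes of mm10, each inside a longer gene on its own strand in GENCODE M21. Mirlet7b (ENSMUSG00000065564.1, chr15:85707319-85707403, plus strand) is exonic in Lncppara, a processed transcript gene, in the 1 of its 2 transcripts that reaches it. Mirlet7d (ENSMUSG00000065453.1, chr13:48536012-48536114, minus strand) lies in an exon of the lincRNA 6720427I07Rik. Mirlet7i (ENSMUSG00000065406.3, chr10:122985640-122985724, minus strand) lies in D630033A02Rik, a transcribed pseudogene, exonic in 1 transcript and intronic in the other. Mirlet7e (ENSMUSG00000105758.1, chr17:17830352-17830444, plus strand) is intronic in the 2 of 16 transcripts of Spaca6 that span it, a gene known for sperm and egg fusion. Mirlet7g (ENSMUSG00000065440.1, chr9:106178840-106178927, plus strand) is intronic in 5 of 6 transcripts of Wdr82, which encodes a subunit of histone methyltransferase complexes. Mir98 (ENSMUSG00000065536.2, chrX:151913214-151913321, plus strand) is intronic in the 2 of 23 transcripts of Huwe1 that span it, which encodes a ubiquitin ligase. Host transcripts are not part of these miRNA count tables, so their levels were not analysed here.

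All 6 genes were strongly counted, and together they held a large part of the counted reads. Their counts summed to 1465692 in replicate 1 and 2010857 in replicate 2, which is 39.0% (Wilson 95% interval 38.9 to 39.0%) and 35.9% (35.9 to 36.0%) of the sense counts. The mean was 37.5% ± 2.18 (SD, n = 2). Within the 12-gene let-7 family the 6 genes held 98.2% and 97.9% of the counts in replicates 1 and 2. The other 6 let-7 genes held 0.735% and 0.771% of all counted reads, and each of them had a lower mean level than Mir98, the lowest of the 6. Since reads that map to several places are not counted, those low values are not tissue levels of let-7a, let-7c and let-7f. In bulk tissue a lower count from fewer cells of a type cannot be told apart from less RNA per cell.

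Mirlet7g, whose hairpin has served as a model for the LIN28 block, stood at the top. It had 639468 counts in replicate 1 and 797279 in replicate 2, or 170147 and 142402 CPM. By these counts it ranked first of all miRNA genes in both libraries. Its mean share of counted reads was 15.6% ± 1.96 (SD, n = 2). Reads that map to several places are outside this ranking and the ranks given below.

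Mirlet7b, which in neural stem cells of mice is known to lower the nuclear receptor TLX and cyclin D1, came second among the 6. It had 313815 and 440121 counts in replicates 1 and 2, or 83499 and 78610 CPM, at a mean of 81054 ± 3457 CPM. Mirlet7i had 288438 and 344494 counts, or 76747 and 61530 CPM, at a mean of 69138 ± 10760 CPM. The CPM of the pair came close in replicate 1, where Mirlet7b was 1.09 times Mirlet7i, and lay further apart in replicate 2, at 1.28 times.

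Mirlet7d, the member whose mature strand starts with A, had 98305 and 256490 counts in replicates 1 and 2. In CPM it stood at 26157 and 45812, a coefficient of variation of 38.6%. In CPM it was the least alike between libraries of the 6, and it ranked 9th of all miRNA genes in replicate 1 and 5th in replicate 2.

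Mirlet7e had 94045 and 132290 counts in replicates 1 and 2, or 25023 and 23628 CPM, and ranked 10th in both libraries. Its coefficient of variation of 4.05% was the smallest of the 6 in CPM. In replicate 1 it lay just under Mirlet7d, which was 1.05 times as high, while in replicate 2 Mirlet7d was 1.94 times as high.

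Mir98, the X-linked member, was the lowest, with 31621 and 40183 counts in replicates 1 and 2, or 8414 and 7177 CPM. Its mean of 7795 ± 874 CPM lay 3.12 times below that of Mirlet7e. It still ranked 23rd and 29th of 2202 genes.

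The order was the same in both libraries, Mirlet7g above Mirlet7b, Mirlet7i, Mirlet7d, Mirlet7e and Mir98. No pair of neighbours in that order had overlapping CPM ranges. Per 1000000 reads of the TMM-scaled library size, however, Mirlet7b (93188 and 70437 in replicates 1 and 2) and Mirlet7i (85652 and 55133) did overlap. With 2 libraries this separation is a description and no test, and at Mirlet7d against Mirlet7e it rests on a gap of 1133 CPM in replicate 1. Among the other let-7 genes the highest was Mirlet7f-2, with 4817 and 4694 CPM in replicates 1 and 2, and the lowest Mirlet7a-2, with 129 and 200 CPM. No range of theirs reached that of Mir98.

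**Figure D2:**
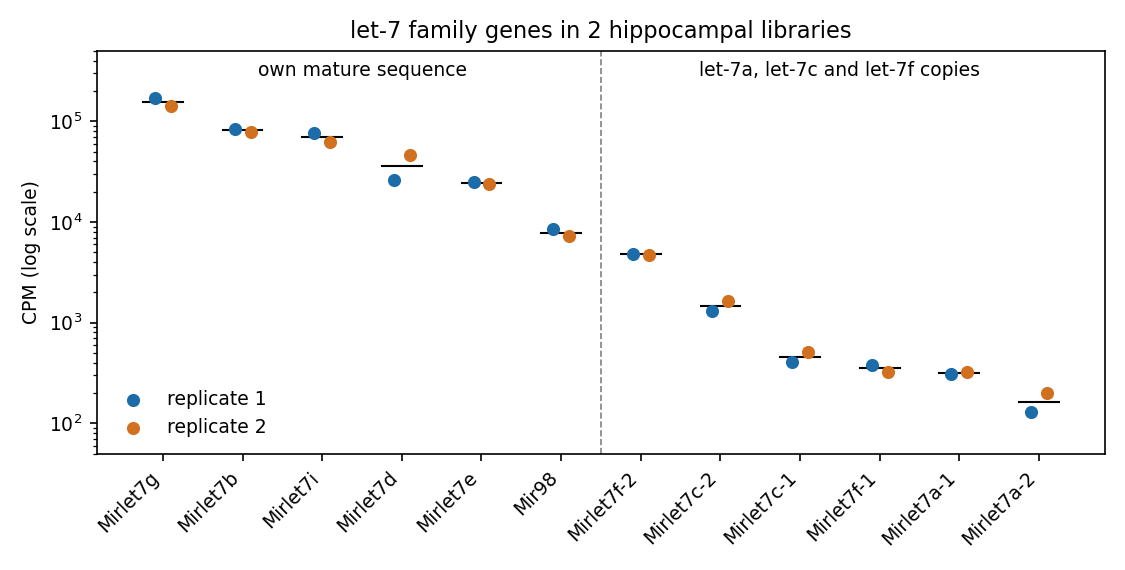
CPM of the 12 let-7 family genes on a log axis, with points for replicates 1 and 2 and a line at their mean. The 6 genes with their own mature sequence lie between 7177 and 170147 CPM, all above the let-7a, let-7c and let-7f copies, which reach at most 4817 CPM.

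Sequence grouped the counts unevenly. Mirlet7g and Mirlet7i, the members that carry G12U and U18C relative to let-7a, held 63.3% of the counts of the 6 genes in replicate 1 and 56.8% in replicate 2. Members with G at position 12 held the other 36.7% and 43.2%. Strands with A at position 19, those of Mirlet7d, Mirlet7e and Mirlet7g, held 56.8% and 59.0%. Mirlet7g alone held 43.6% and 39.6% in replicates 1 and 2, so the larger share at both positions is mostly its own. A strand that begins with A, found in Mirlet7d alone, accounted for 6.71% and 12.8%. These shares assign each gene's whole count to its 5′ strand, since the arms are not separated in the counts.

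Outside the family, the miRNA gene nearest in level was found for each member. By Euclidean distance in log2(CPM + 1) over the 2 libraries, among 372 detected genes outside the let-7 family, Mir139 was nearest to Mirlet7b (distance 0.25), Mirlet7i (0.39) and Mirlet7g (1.53). Mir139 had 70326 and 79397 CPM in replicates 1 and 2, so in CPM it was lower in replicate 1, while with TMM scaling it was 1.10-fold higher there, in the direction of those 3 genes. Mir744 was nearest to Mirlet7d at a distance of 0.16, with 28419 and 42681 CPM in replicates 1 and 2. Mir23b was nearest to Mirlet7e (0.35), and Mir411 to Mir98 (0.09) with 8695 and 6818 CPM in replicates 1 and 2. Each gene was picked by these same CPM values. A like direction between libraries therefore follows from the choice where the distance is small, and is no separate result.

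All 6 genes differed between the libraries beyond counting error, 5 of them higher in replicate 1 and Mirlet7d alone higher in replicate 2. The background was 65.1% called of the 384 genes with at least 10 counts in both libraries, 34.1% of them higher in replicate 1 and 31.0% in replicate 2. The test was a two-sided exact binomial one on each gene's counts, with library sizes scaled by edgeR's TMM factors (the trimmed mean of log ratios) and Benjamini-Hochberg adjustment over all 384. Scaled by total counts instead, calls numbered 76 with the higher value in replicate 1 and 195 with it in replicate 2, with the median log2 ratio of all 384 at -0.31 in place of 0.01 with TMM. Among the 53 genes with at least 10000 counts in both libraries 98.1% were called, and 73.6% of the 53 were called higher in replicate 1. The adjusted p of each of the 6 genes was smaller than the smallest number the software holds. The test compares these libraries and not conditions.

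The sizes of the differences were ordinary for these libraries. Mirlet7i was higher in replicate 1 by 1.55-fold after TMM scaling, with a log2 ratio of 0.64 (95% interval from counting error alone 0.63 to 0.64). Mirlet7g was 1.49-fold, Mir98 1.46-fold, Mirlet7b 1.32-fold and Mirlet7e 1.32-fold higher in replicate 1. Mirlet7d was 1.41-fold higher in replicate 2, with a log2 ratio of -0.49 (-0.50 to -0.48). The median absolute difference was 1.43-fold over the 6 genes and 1.36-fold over all 384. By absolute log2 ratio the 6 genes lay between percentiles 43.8 and 66.7 of the 384, and 1 of them passed 1.5-fold, against 36.2% of all tested genes. In CPM, a scale that differs from TMM by a factor of 1.25, the directions of all 6 were the same, at 1.75-fold for Mirlet7d and between 1.06-fold and 1.25-fold for the other 5.

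**Figure D3:**
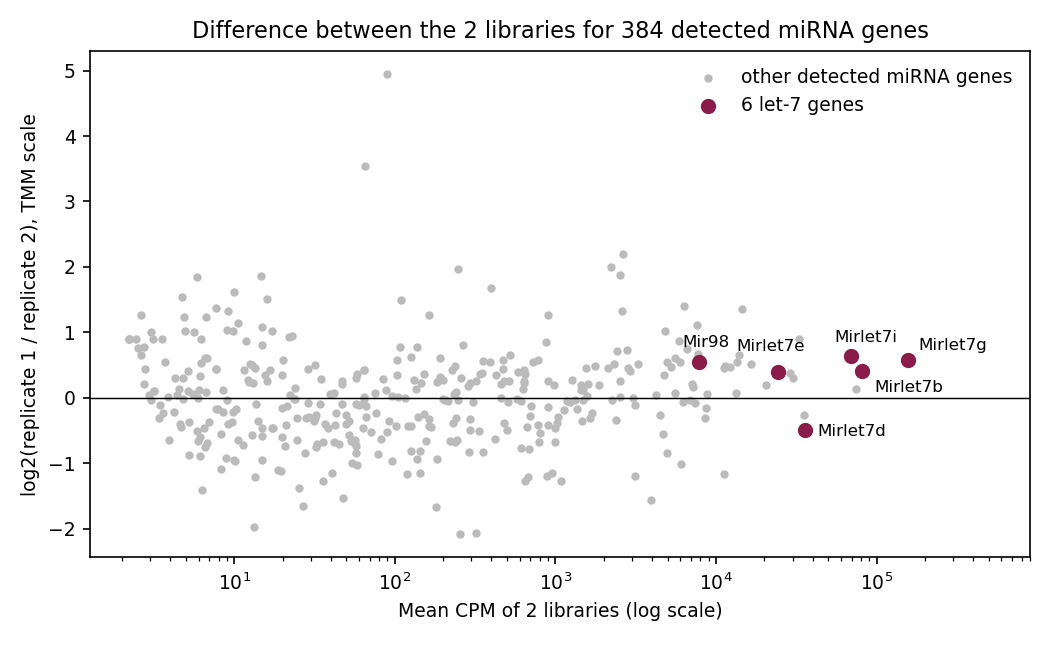
Log2 ratio of replicate 1 over replicate 2 on the TMM scale against mean CPM on a log axis, for the 384 miRNA genes with at least 10 counts in both libraries. Of the 6 let-7 genes, 5 lie between 0.40 and 0.64 and Mirlet7d lies at -0.49, inside the spread of the other genes.

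Another miRNA gene lies within 10 kb on the same strand of 4 of the 6 genes, and such neighbours are commonly made from 1 primary transcript. The cluster on chromosome 17 brings together Mirlet7e with Mir99b, 94 bases before it, and Mir125a, 367 bases after it. These encode other seeds, shown in capitals.
miR-99b-5p: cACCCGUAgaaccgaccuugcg
miR-125a-5p: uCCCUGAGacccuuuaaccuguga
Mirlet7e outnumbered both neighbours in both libraries, but the neighbours moved in opposite directions between them. Mir99b had 32216 counts in replicate 1 and 22663 in replicate 2, or 8572 and 4048 CPM, and on the TMM scale it was 2.64-fold higher in replicate 1. Mir125a had 22263 and 92845 counts, or 5924 and 16583 CPM, and was 2.25-fold higher in replicate 2. The binomial test called both, and both directions also held in CPM. The ratio of Mirlet7e to Mir99b was therefore 2.92 in replicate 1 and 5.84 in replicate 2, and the ratio of Mirlet7e to Mir125a was 4.22 and 1.42. Mirlet7e made up 80.9% (Wilson 95% interval 80.6 to 81.1%) of the counts of the Mirlet7e and Mir125a pair in replicate 1 and 58.8% (58.6 to 59.0%) in replicate 2.

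On chromosome 15, Mirlet7b lies 621 bases after Mirlet7c-2. Mirlet7c-2 had 4878 and 9265 counts in replicates 1 and 2, and Mirlet7b was 64.3 and 47.5 times as high. The mature strand of Mirlet7c-2 is also encoded by Mirlet7c-1, and reads that map to both places enter neither count. Mirlet7c-2 was not called between the libraries (adjusted p = 0.241, exact binomial test), its TMM difference being 1.02-fold with replicate 2 the higher.

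On chromosome 13, Mirlet7d lies 1714 bases after Mirlet7f-1 and 2064 bases after Mirlet7a-1, both with duplicated mature strands. As reads that map to several places enter no count, the ratios and directions of these neighbours describe their remaining reads alone. Mirlet7f-1 had 1444 and 1817 counts and Mirlet7a-1 had 1172 and 1824 counts in replicates 1 and 2. Mirlet7d was 68.1 and 141 times as high as Mirlet7f-1, and 83.9 and 141 times as high as Mirlet7a-1. On the TMM scale both neighbours were called higher in replicate 1, by 1.47-fold and 1.19-fold, the opposite of Mirlet7d, although in CPM Mirlet7a-1 was 1.04-fold higher in replicate 2. Only Mirlet7d of this cluster was thus higher in replicate 2 on both scales.

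On the X chromosome, Mir98 lies 785 bases after Mirlet7f-2, which shares its mature strand with Mirlet7f-1. Mirlet7f-2 had 18102 and 26283 counts in replicates 1 and 2, and Mir98 was 1.75 and 1.53 times as high. Reads that map to both let-7f places enter neither count, so this ratio is not the relative output of the pair. Of all the cluster pairs named here, Mir98 and Mirlet7f-2 kept their ratio most nearly, moving by 1.14-fold between libraries, against 2.96-fold for Mirlet7e and Mir125a. With TMM scaling Mirlet7f-2 was called higher in replicate 1 by 1.28-fold, the same direction as Mir98. Mirlet7g and Mirlet7i had no other miRNA gene within 10 kb, and the nearest to Mirlet7g on its strand within 50 kb, Mir135a-1 at 24626 bases, had 23 and 40 counts in replicates 1 and 2.

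**Figure D4:**
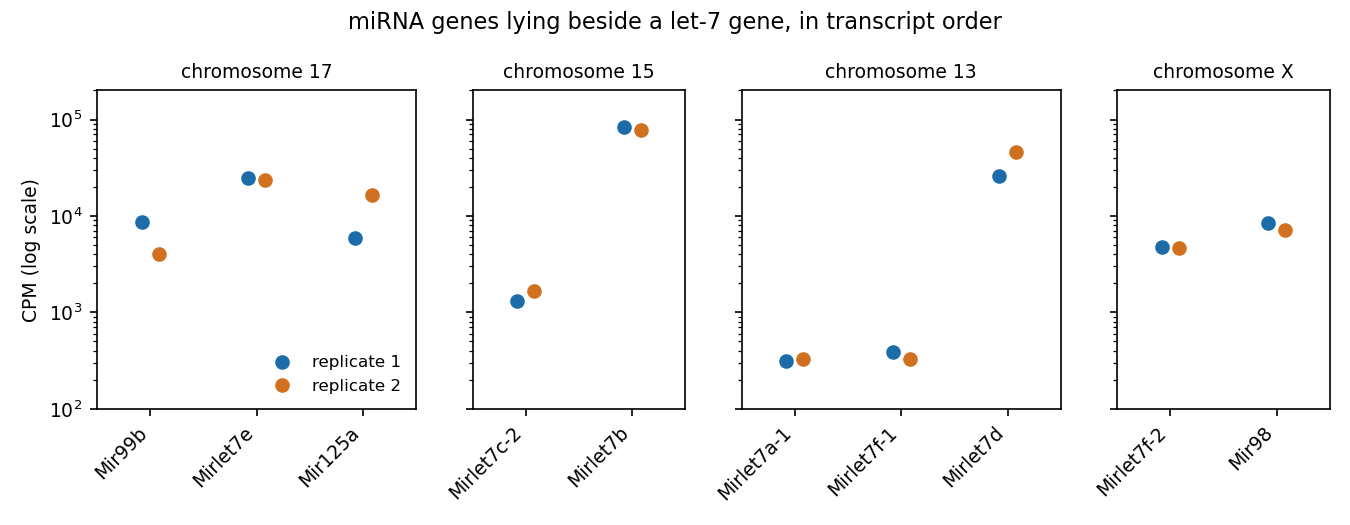
CPM on a log axis of the miRNA genes in each of the 4 clusters that hold a described let-7 gene, in the order of transcription, with points for replicates 1 and 2. On chromosome 17, Mir99b is higher in replicate 1 (8572 against 4048 CPM) and Mir125a is lower there (5924 against 16583 CPM), with Mirlet7e nearly level at 25023 and 23628 CPM.

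Strand information decided the count of 1 member. Mirlet7e lies wholly inside Gm25927, an annotated miRNA gene on the other strand, across all 93 bases of its hairpin. Counted without strand, Mirlet7e had 0 reads in both libraries, and the line of ambiguous reads held 287630 and 425131 reads in replicates 1 and 2. Gm25927 had 0 sense counts in both libraries. The other 5 genes gave the same count with and without strand, to within 12 reads. On chromosome 13 Mirlet7f-1, the neighbour of Mirlet7d, is overlapped in the same way by Gm24111, which had 5 and 0 sense counts.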

How the data were processed

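Small RNA libraries were counted per miRNA gene by the authors. The deposited values are raw whole-number counts on mm10 with GENCODE M21, per the text deposited with the tables. The sources used here do not name the aligner, its mismatch allowance or the adaptor handling. Each table has an unstranded column and a column per strand, and the sense column was used. The 4 summary lines, 64.5% and 65.3% of the reads of replicates 1 and 2, were left out.

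GENCODE M21 named all 2202 identifiers. Mature strands came from RefSeq on GRCm38.p6, whose hairpins were identical to GENCODE's for all 12 let-7 genes. The loop stretch of 1 of the 6 genes is not reported here. CPM are counts per 1000000 sense counts. Libraries were compared with exact binomial tests (scipy 1.17.1), TMM scaling (edgeR 4.0.16) and Benjamini-Hochberg adjustment at 0.05. The binomial test and adjustment were tried on simulated counts of the same 384 genes, with counting error only. Library sizes there were total counts, so TMM scaling was not tried. The test found 51 of 67 genes altered 1.5-fold, 63 of 67 altered 2-fold and 66 of 66 altered 4-fold. It called 3 of 184 unaltered ones. The real libraries differed beyond counting error, with edgeR's common coefficient of variation at 34.4% over the 384 genes. The simulated rates thus do not carry over to the real libraries. Without molecular identifiers reads are not independent molecules, so intervals cover counting error alone. Read yields of different sequences were not calibrated. With 1 group, an edgeR quasi-likelihood contrast had nothing to test.

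Members, lists and tests were chosen with earlier results of these data known. Named genes are the members, miRNA genes within 10 kb or overlapping, the other let-7 genes, Mir202 and Mir1961, host genes, and the gene nearest to each member in level. Mir135a-1, found with the 50 kb window, and Mir124a-1, Mir124a-2 and Mir124a-3, from the marker lists, are named besides. Alternatives covered count columns, denominators, scalings (DESeq2 1.42.0 among them), filters, a chi-square test, windows, pseudocounts and each replicate left out. A background of genes with at least 10000 counts was added after seeing the data.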

Additional observations from a re-analysis of the deposited data

Results flagged for a closer look

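The strand column that the comparisons do not use held more than 3 reads at 5 of the named genes, marker-list genes left aside. Gm25927 had 94045 opposite-strand counts in replicate 1 and 132290 in replicate 2, the same numbers as the sense counts of Mirlet7e, which it overlaps. Gm24111 had 1444 and 1817 opposite-strand counts in replicates 1 and 2, the same numbers as the sense counts of Mirlet7f-1. Mirlet7f-1 had 5 opposite-strand counts in replicate 1, the number of sense counts of Gm24111 there. Mirlet7b had 12 opposite-strand counts in replicate 2, beside 440121 sense counts. Mir98 had 4 opposite-strand counts in replicate 2, beside 40183 sense counts. With 2 libraries in the group, samples were not tested for outliers.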

How the results depend on the processing

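The share held by the 6 genes, 37.5% of sense counts, was 35.9 to 39.0% with each replicate left out. Other denominators set it, by their own construction, at 60.7% of the counts outside the let-7 family, 87.0% of those outside the 10 most abundant genes and 13.2% of all reads, and it was 0.00240% of the opposite-strand counts. All 6 members were called under DESeq2 size factors, total counts, both other filters and the chi-square test. With unstranded counts 5 were called, and Mirlet7e was not tested. Of all tested genes, 65.1% were called under DESeq2 size factors, 70.6% under total counts and 65.4% by the chi-square test. The share was 35.4% of 752 genes with 1 count in either library and 83.9% of 242 with 100 counts in both. With unstranded counts it was 63.7% of 358. All 35 alternative values of single members kept direction and call. By size alone, 1 member passed 1.5-fold and 0 passed 2-fold, against 139 and 58 of the 384 genes. The 250 calls among all genes became 52 of 53 among genes reaching 10000 counts in each library. They were 203 to 271 under the other scalings, filters, test and count column. The number of genes tested differed between these settings, so the share called ran from 35.4% to 83.9%. With a replicate left out no test between libraries exists. With a window of 1 kb in place of 10 kb, 5 in place of 8 neighbouring miRNA genes remained. No paired analysis was possible because the series has 1 group. The least counted of the 6 genes had 31621 counts, so depth limits mainly the comparison with rarer genes.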

Other observations

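A few further mouse miRNA genes carry a let-7-like seed. Mir202 and Mir1961 were listed for it, and Mir7j and Mir7k, which encode let-7j and let-7k, were chosen after their values were seen. Capitals mark bases 2 to 8.
let-7j: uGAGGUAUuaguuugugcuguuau
let-7k: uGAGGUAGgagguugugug
The let-7j strand differs from let-7i by G8U alone over 22 bases, which changes the last base of the seed. Mir7j (chr3:140028249-140028370) had 172 and 266 counts in replicates 1 and 2, or 45.8 and 47.5 CPM, which is 0.0596% and 0.0772% of the Mirlet7i counts. The let-7k strand differs from let-7b by U9G alone over 19 bases. Mir7k (chr5:147283189-147283298) had 4 and 3 counts. Mir202 had 0 and 6 counts and Mir1961 had 0 in both libraries, and the floor of 3 counts corresponds to 0.798 and 0.536 CPM in replicates 1 and 2.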
